A study of Homo sapiens with 14 samples.

Results

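NTM, TMEM114, ANAPC15 and ARG1 are the genes in or nearest to the 4 regions with the strongest FLI1 enrichment in TC-32 cells. The regions were ranked by FLI1 fold over IgG. Within each of the 4 FLI1 peak lists every region took the percentile of its highest-fold peak, and the mean of the 4 percentiles gave the order among the 16163 regions found in all 4 lists. The top 4 regions led to 4 of 19970 protein-coding genes on the 22 autosomes and X. The members were thus chosen by fold, and their folds and ranks are given below as a description with no test.

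TC-32 is an established Ewing sarcoma cell line that carries the EWSR1::FLI1 fusion, and the labels name it WT and untreated. CUT&RUN, in which a nuclease tethered to an antibody cuts out the DNA beside its target, was done with antibodies to FLI1 (sets A and B), H3K27ac (set A), H3K9me3 (set B) and H3K27me3 (set B), each with 2 replicates per set. Each set has 2 IgG control libraries, to which the deposited peaks are already relative. The labels do not say what the letters A and B stand for, nor whether replicates came from separate cultures, and all libraries come from 1 cell line, so spreads below are spreads between libraries.

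EWSR1::FLI1 joins the activation domain of EWSR1 to the ETS DNA-binding domain of FLI1. ETS proteins recognise a GGAA core, and the fusion is known to occupy tandem GGAA microsatellites as well as single ETS sites at promoters. H3K27ac marks active promoters and enhancers, H3K27me3 marks Polycomb-repressed chromatin, and H3K9me3 marks constitutive heterochromatin. An antibody to FLI1 does not by itself tell the fusion from FLI1.

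The sequences at or near the 4 summits fall into 2 kinds, and they are shown first because the rest of the description turns on them. All are from the hg38 reference. The NTM, TMEM114 and ARG1 regions each hold an uninterrupted GGAA run, printed with 40 bases on either side on the strand that reads GGAA, with the run in capitals. The lines give chr11:131976077-131976196 (minus strand) for NTM, chr16:8576666-8576809 (plus strand) for TMEM114 and chr6:131383670-131383801 (plus strand) for ARG1.
NTM: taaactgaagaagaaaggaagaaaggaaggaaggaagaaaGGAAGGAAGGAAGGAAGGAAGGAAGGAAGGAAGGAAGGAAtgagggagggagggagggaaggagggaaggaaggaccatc
TMEM114: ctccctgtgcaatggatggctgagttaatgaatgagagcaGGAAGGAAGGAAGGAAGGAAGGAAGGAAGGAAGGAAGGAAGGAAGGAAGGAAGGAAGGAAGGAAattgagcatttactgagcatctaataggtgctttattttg
ARG1: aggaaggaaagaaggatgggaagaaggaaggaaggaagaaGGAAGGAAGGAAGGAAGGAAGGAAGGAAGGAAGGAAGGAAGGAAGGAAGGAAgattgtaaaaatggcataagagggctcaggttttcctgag
The runs hold 10 units at NTM, 16 at TMEM114 and 13 at ARG1. At NTM and ARG1 the flanking bases carry further GGAA units broken by short gaps, while the TMEM114 run is flanked by other sequence.

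The ANAPC15 region holds no run of 4 or more units. Its summits lie in chr11:72112452-72112649, a stretch between annotated untranslated exons, shown on the minus strand (the strand of the gene) with its 4 TTCC cores, the reverse complement of GGAA, in capitals. A second line shows chr11:72112671-72112693 on the plus strand, with CCGGAAG in capitals, the longer form of an ETS core that lies 113 bp from the median summit.
ANAPC15 summit: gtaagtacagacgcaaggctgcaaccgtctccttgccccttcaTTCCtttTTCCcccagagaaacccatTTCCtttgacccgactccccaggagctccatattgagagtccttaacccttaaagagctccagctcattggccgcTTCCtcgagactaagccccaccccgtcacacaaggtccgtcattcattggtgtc
ANAPC15 ETS core: gcggcgacCCGGAAGcgcttcac
This motif of 7 letters was searched on both strands after the sequence had been seen. It is present in the 300 bases centred on the ANAPC15 summit and absent from the same window at NTM, TMEM114 and ARG1. Of all 16163 regions, 11.4% hold it in such a window, and so do 10.3% of the 35116 promoters of 300 bases in the RefSeq table (GRCh38.p14). Its extension CCGGAAGT is in none of the 4 windows, and in 4.65% of the regions and 4.14% of the promoters.

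A run of equal length that was not in any FLI1 list is set beside these because it belongs to the same neighbourhood. It lies at chr16:8520902-8521045 (plus strand), 55472 bp from the TMEM114 summit, and holds 16 units, as many as the run near the summit.
TMEM114 window, no FLI1 peak: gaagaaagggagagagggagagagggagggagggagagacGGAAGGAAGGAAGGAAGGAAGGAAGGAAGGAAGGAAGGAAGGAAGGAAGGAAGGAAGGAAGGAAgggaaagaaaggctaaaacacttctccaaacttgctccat
In the flanks of this run, 4 of 4 sampled stretches of 31 bases occur once in the genome. Around each of the 4 member summits, 5 of 5 such stretches are also unique. The 31 bases in the middle of the runs are not, and occur 22151 times for NTM, 22827 for TMEM114 and 22391 for ARG1.

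NTM encodes neurotrimin, a GPI-anchored neural adhesion protein of the IgLON family. The gene (ENSG00000182667) spans chr11:131370478-132336822 on the plus strand, and its strongest region, chr11:131971769-131983108, lies in an intron 605 kb from the gene start. No exon of its 8 transcripts there falls under the region. The region also overlaps 1 exon of the lncRNA gene ENSG00000224700, away from the summit. The strongest FLI1 peak had a fold over IgG of 301 and 346 in set A replicates 1 and 2, and of 114 and 67.04 in set B replicates 1 and 2. Both set A libraries were above both set B libraries. These peaks ranked 2, 3, 5 and 23 in their lists. The peaks were 10578, 9144, 4765 and 4859 bp wide in the same order, and the summits of the 4 libraries fell within 3 bp of each other.

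TMEM114 encodes a claudin-like tetraspan membrane protein. The gene (ENSG00000232258) spans chr16:8537605-8590511 on the minus strand, and the region, chr16:8570301-8580453, lies inside it with the summit 14.0 kb from the gene start. The region contains 2 annotated exons, and the summit is intronic in the 4 transcripts that cover it. A shorter TMEM114 transcript starts inside the region, at chr16:8572302. Fold was 251 and 294 in set A replicates 1 and 2, and 98.0 and 59.0 in set B replicates 1 and 2, again with no overlap between sets. The ranks in the lists were 5, 4, 13 and 52. Widths were 9367, 8450, 2960 and 4717 bp, and the summits spanned 66 bp.

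ANAPC15 encodes a small subunit of the anaphase-promoting complex that promotes turnover of the mitotic checkpoint complex. It is the only member whose strongest region covers its gene start, taken as the outermost annotated one. The gene (ENSG00000110200) spans chr11:72106378-72112780 on the minus strand, the region is chr11:72111669-72113291, and the summit lies 210 bp inside the gene, in an intron of 8 transcripts and under no exon. Fold was 143 and 180.5 in set A replicates 1 and 2, and 85.7 and 99.96 in set B replicates 1 and 2. The peak ranked 60, 43 and 36 in the first 3 of these lists and 1 in set B replicate 2. ANAPC15 was thus the first of the members in set B replicate 2 and the last of them in the first 3 lists. Widths were 1503, 1520, 1080 and 1078 bp, and the summits fell within 14 bp.

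ARG1 encodes the cytosolic arginase that carries out the last step of the urea cycle. Here the gene is only the nearest one. The region, chr6:131378709-131390251, lies 80.6 kb outside the gene body (ENSG00000118520, chr6:131470832-131584332, plus strand). Its summit is 86.9 kb upstream of the outermost GENCODE start of ARG1. The RefSeq promoter listed for ARG1, chr6:131572976-131573275, lies within that gene body and farther from the region. The next coding gene, AKAP7, is 95173 bp away. The summit is intronic in 1 transcript of the lncRNA gene ENSG00000290067. Fold was 231 and 402 in set A replicates 1 and 2, and 96.7 and 92.8 in set B replicates 1 and 2. The 402 was the highest fold in the list of set A replicate 2, and the other ranks were 6, 14 and 4. Widths were 11045, 9355, 4842 and 4495 bp, and the summits spanned 38 bp.

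The cut after the fourth region was narrow. The mean percentile was 99.9093 at ANAPC15, just inside, and 99.9086 at ZNF558, just outside (chr19:8831269-8833395, folds of 184, 221, 93.6 and 57.0 in the same library order). ARG1 led with 99.9854, followed by NTM with 99.9767 and TMEM114 with 99.9440. ZNF558 encodes a zinc finger protein. The region also overlaps MBD3L1, holds no GGAA run, and has CCGGAAG in the summit window, as at ANAPC15.

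**Figure D1:**
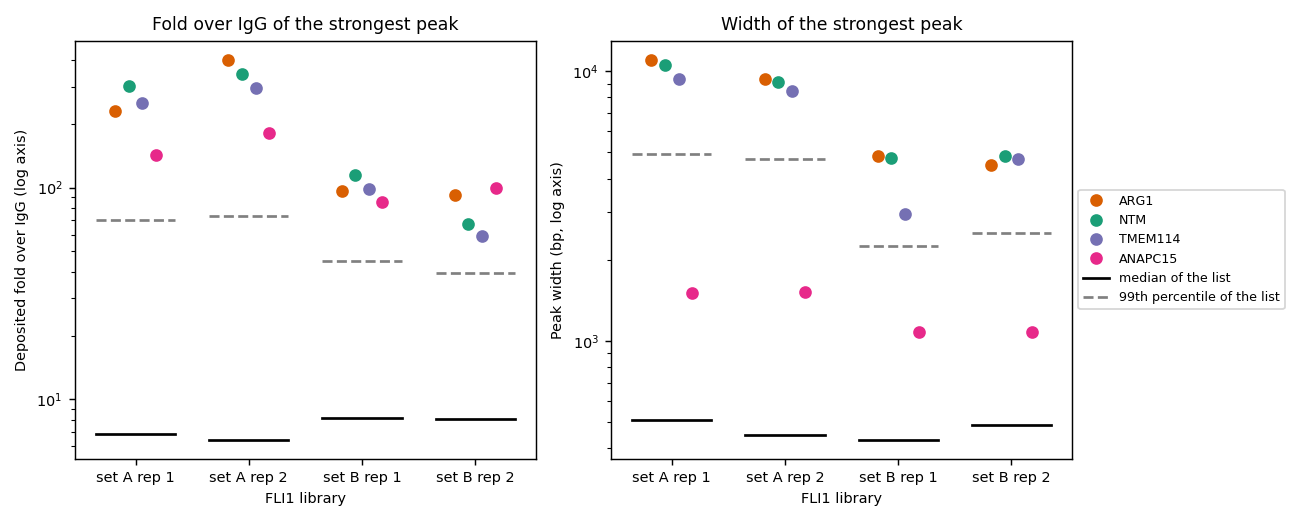
Fold over IgG (left, log axis) and width in bp (right, log axis) of the strongest FLI1 peak at each member in the 4 FLI1 libraries, with the median (solid line) and 99th percentile (dashed line) of each whole list. All 4 members lie above the 99th percentile of fold in every library, which is how they were chosen, whereas the ANAPC15 peaks, 1078 to 1520 bp wide, lie below the 99th percentile of width in every library.

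Width, which the rule did not use, separated ANAPC15 from the others. The NTM peaks were 20.8, 20.5, 11.1 and 10.0 times the median width of their lists, and the ARG1 peaks 21.7, 20.9, 11.3 and 9.27 times. The TMEM114 peaks were 18.4, 18.9, 6.88 and 9.73 times the median. At ANAPC15 the ratios were 2.96, 3.400, 2.51 and 2.22. Across the union of the 4 lists the regions measured 11543 bp at ARG1, 11340 bp at NTM, 10153 bp at TMEM114 and 1623 bp at ANAPC15, against a median of 1161 bp over all 16163. By union width they ranked 63, 71, 92 and 4425, where the widest region reached 24480 bp. The first 3 were above the 99th percentile of union width, 8448 bp, and ANAPC15 was below it.

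The 3 wide regions were also divided differently by the libraries. ARG1 was 1 unbroken peak in set A replicate 1 and 3, 3 and 2 peaks in the other libraries. NTM held 2, 2, 4 and 2 peaks and TMEM114 held 2, 3, 5 and 2, while ANAPC15 held 1 in each library. In the set B libraries a second, lower peak stood apart from the main one at NTM, with a fold of 13.6 in replicate 1 and 21.97 in replicate 2, and at ARG1, with a fold of 11.6 and 9.85. In set A the main peak reached over the summits of these second peaks.

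**Figure D2:**
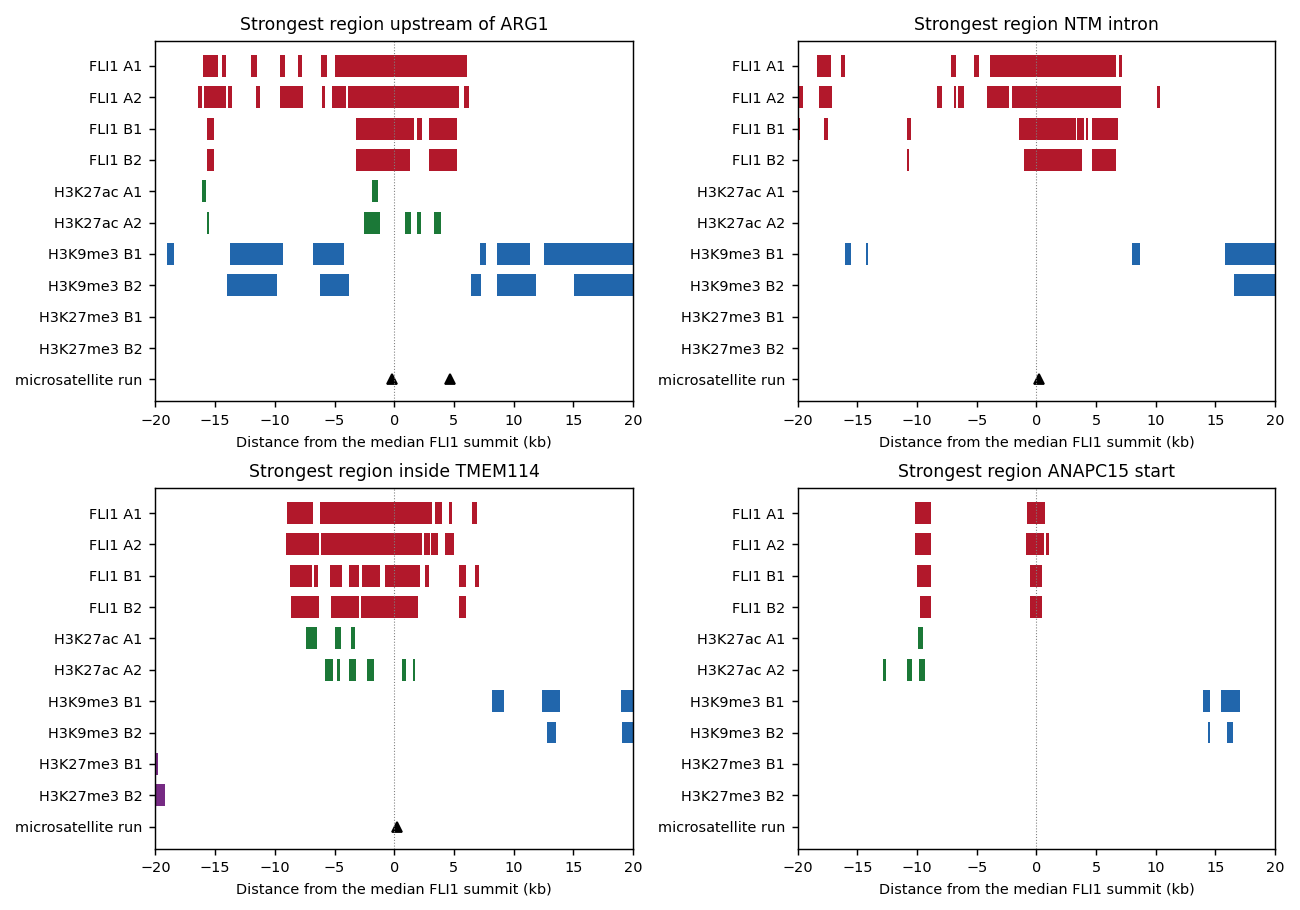
Peaks of all 10 lists within 20 kb of the median FLI1 summit of each strongest region (x axis, distance in kb; one row per library; triangles, uninterrupted microsatellite runs of at least 4 units). Broad FLI1 blocks sit over a run upstream of ARG1, in the NTM intron and inside TMEM114, the ANAPC15 block is narrow and holds no run, and no mark peak covers a summit.

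FLI1 peaks covered more bases of every region in set A than in set B. At NTM they covered 10836, 10991, 7717 and 6921 bp in set A replicates 1 and 2 and set B replicates 1 and 2, and at ARG1 11045, 11018, 7679 and 6794 bp. At TMEM114 the values were 9962, 9456, 6611 and 7056 bp, and at ANAPC15 1503, 1520, 1080 and 1078 bp. No region showed overlap between the sets. The set A mean exceeded the set B mean 1.49-fold at NTM, 1.42-fold at TMEM114, 1.40-fold at ANAPC15 and 1.52-fold at ARG1. An exact permutation test, two-sided, with 2 libraries against 2 gave p = 0.333 for each region (0.333 after Benjamini-Hochberg adjustment over the 4), the smallest this design can give. The mean difference over the 4 regions was 2674 bp, and 4021 bp when only the widest peak of each library was counted. The 99th percentile of peak width in the whole lists moved the same way, at 4945 and 4739 bp in set A and 2248 and 2511 bp in set B. The part of depth and of the set in these widths cannot be told apart.

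The run at each wide region lay close to the summit but not on it. The median summit was 178 bp from the edge of the NTM run, 199 bp from the ARG1 run and 228 bp from the TMEM114 run. The ARG1 region held a second run of 4 units 4672 bp from the summit. Thus 3 of 4 strongest regions held a run of at least 4 units, where 8.18% of all 16163 regions did and 85.9% of the 489 regions at least 5 kb wide did, the latter background having been chosen after the widths were seen. GGAA and TTCC cores counted in the 1 kb at the summit numbered 29 at NTM, 26 at TMEM114, 33 at ARG1 and 12 at ANAPC15, with a median of 13 over all regions. The ANAPC15 count was above that of 38.4% of the regions, and the ARG1 count above that of 98.4%.

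Most other runs near the members were not in the FLI1 lists, as in the whole genome, where 8.22% of the 16350 runs of at least 4 units had a FLI1 peak in all 4 lists. Within 200 kb of the NTM gene body there were 11 runs outside the strongest region, of which 3 were under peaks of all 4 lists and 8 under none. Runs parted by a few bases were counted separately. Examples are the adjoining bound runs of 4 and 14 units and the adjoining unbound runs of 6 and 11 units. At the longest of the 8, of 11 units, 1 of 4 sampled flanking stretches was unique and the others occurred 44497, 273 and 12 times. The bound ones included the longest, of 14 units, which lay 242419 bp left of the summit in a region with folds of 36.4, 33.2, 21.04 and 33.9 in the 4 libraries. Around TMEM114 all 6 other runs were in no list, among them the 16-unit run printed above. The single run in the ANAPC15 window, of 13 units at 94738 bp, was in no list, and 2 of 4 sampled flanking stretches there were unique.

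Around ARG1, 1 of 4 other runs was under FLI1 in all 4 lists. It had 12 units and lay in chr6:131757100-131767279, a region 10180 bp wide that ranked 88 of 16163. Folds there were 133, 131, 56.7 and 32.7. Hence 2 of the broad FLI1 regions of the genome stood on either side of ARG1, the second starting 373 kb from the summit of the first. The other 3 runs were in no list. Those of 10 and 6 units adjoined each other, and that of 11 units lay inside the GENCODE gene body, upstream of the RefSeq promoter. At that run 3 of 4 flanking stretches were unique. Over the whole genome 22.6% of the 3321 runs of at least 10 units had a FLI1 peak in all 4 lists. The share was 17.4% for 10 to 12 units, 24.7% for 13 to 15 and 34.6% for 16 to 20.

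**Figure D3:**
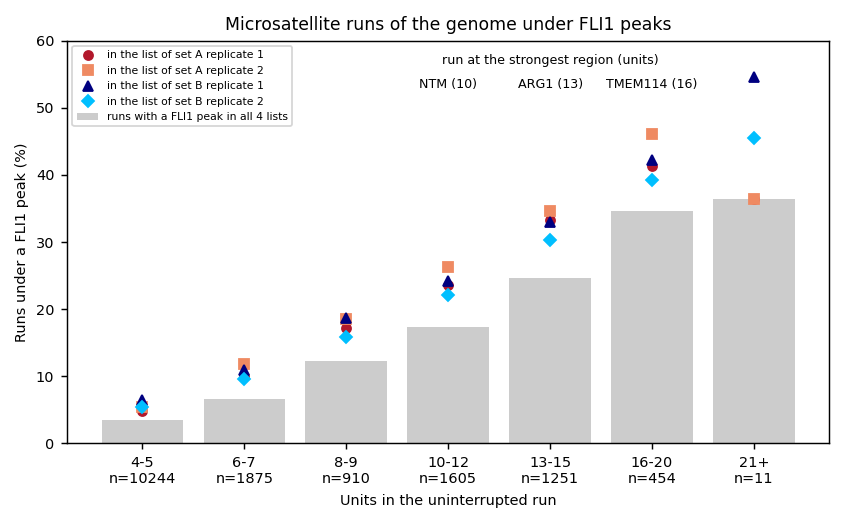
Share of uninterrupted microsatellite runs of the genome (y axis, %) under a FLI1 peak in all 4 lists (bars) and in each list (points), by number of units (x axis, with the number of runs). The share in all 4 lists goes from 3.49% at 4 to 5 units to 34.6% at 16 to 20, and the last bin holds 11 runs. The labels at the top place the runs of the 3 wide regions in their bins.

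FLI1 was present in all 4 lists within 10 kb of the gene body of 4 of 4 members, against 53.1% of all protein-coding genes, a count that the rule largely fixes and from which nothing is read. At 50 kb and 200 kb it was 4 of 4 against 70.0% and 88.7%. Within 1 kb of the outermost gene start it was only ANAPC15, 1 of 4 against 33.8%. Starts of shorter transcripts were not counted. At NTM several lie in chr11:131910530-131913433, a region found in all 4 lists with folds of 9.85, 10.2, 14.4 and 5.60. The start of a shorter TMEM114 transcript lies in the strongest TMEM114 region. For ARG1 the strongest region enters only in the widest window. Peaks within 10 kb of the ARG1 gene body numbered 2, 4, 3 and 3 in the 4 libraries with folds of at most 18.5, 10.5, 11.4 and 12.965.

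NTM differed from the other members in how many FLI1 peaks it held. Within the gene and 10 kb either side there were 54 and 84 peaks in set A replicates 1 and 2, and 87 and 50 in set B replicates 1 and 2. The median protein-coding gene held 1 in each library. NTM had the most FLI1 peaks of all 19970 genes in 3 libraries. In set A replicate 1 it was second to OPCML, the IgLON gene next to it, which held 60, 63, 57 and 49 peaks in the 4 libraries. NTM is long, so peaks per 100 kb were also compared among the 322 genes of at least 500 kb, a limit set after the counts were seen. Its density was 5.47, 8.52, 8.82 and 5.07 per 100 kb, where the medians of those genes were 0.486, 0.541, 0.392 and 0.259, and it ranked 3, 1, 1 and 1. With only peaks of −log10 q of at least 5, an alternative added after seeing the data, NTM held 45, 58, 70 and 41 peaks and ranked 1, 1, 1 and 2.

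The further NTM regions were weak beside the strongest one. Of 31 regions found in all 4 lists within 200 kb of the gene body, 26 of the 30 others lay inside the gene. Their best rank was 900, 2 of the 30 held a run, 1 overlapped H3K27ac and none overlapped H3K9me3 or H3K27me3. Counting 4-list regions within 10 kb, NTM had 28 and OPCML 27, and only RERE, with 31, had more among all protein-coding genes. The other members were far below NTM by this count, but above the median of 1 region over all protein-coding genes. TMEM114 held 5, 5, 9 and 4 peaks within 10 kb and ANAPC15 2, 3, 2 and 2, and each had 2 regions in all 4 lists, as did ARG1.

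**Figure D4:**
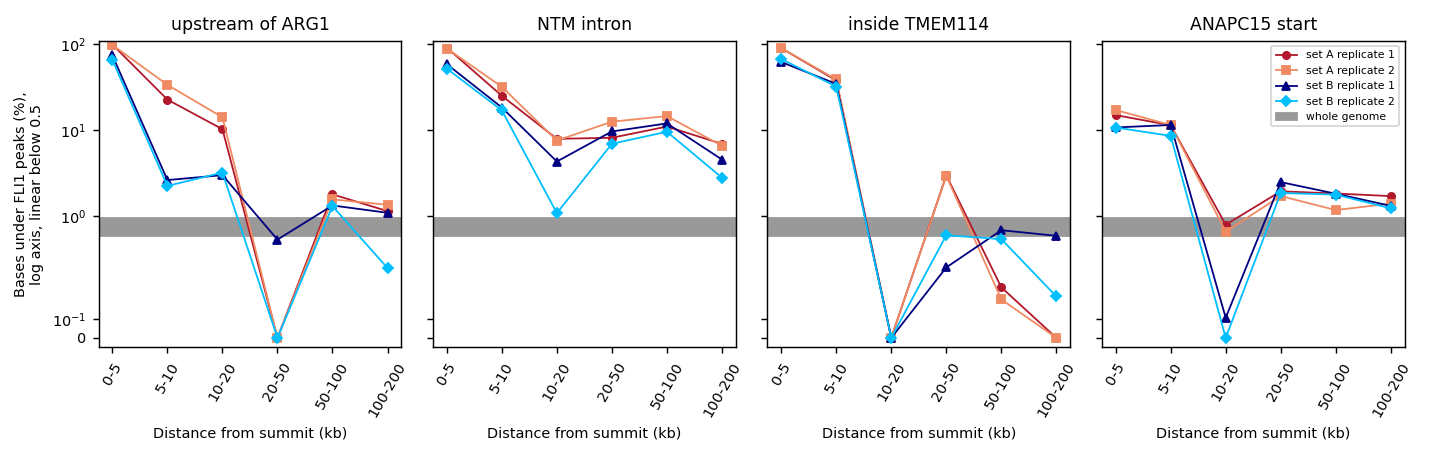
Share of bases under FLI1 peaks (y axis, %, log axis that is linear below 0.5) by distance from the median summit (x axis, bins in kb, both sides together), one line per FLI1 library; the grey band is the range of the whole-genome share over the 4 libraries. At 50 to 100 kb NTM keeps 9.63% to 14.6%, above the genome share of 0.596% to 0.962%, while at 10 to 20 kb TMEM114 is at 0 in all 4 libraries.

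Coverage by FLI1 peaks fell off differently around each summit. In the 5 kb on either side, peaks covered 91.3%, 89.3%, 58.8% and 52.2% of bases at NTM, and 99.4%, 98.1%, 74.2% and 65.7% at ARG1. At TMEM114 no peak was listed between 10 and 20 kb in any library. At NTM coverage was 11.1%, 14.6%, 12.03% and 9.63% between 50 and 100 kb, which was above the 10 to 20 kb bin in every library. ANAPC15 had a second block between 5 and 10 kb, at 11.5%, 11.5%, 11.5% and 8.62%. That block is the FLI1 region at the start of LAMTOR1, a subunit of the Ragulator complex of lysosomes, with folds of 45.8, 48.1, 45.2 and 20.7.

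H3K27ac overlapped 2 of 4 strongest regions in both of its replicates, TMEM114 and ARG1, where 12.4% of all 16163 regions and 34.6% of those at least 5 kb wide did. The TMEM114 region held 2 H3K27ac peaks in replicate 1 and 6 in replicate 2, with the highest fold at 5.50 and 7.64. The ARG1 region held 1 and 4, with the highest fold at 5.01 and 6.54. These folds were below the 99th percentiles of the H3K27ac lists, 8.09 and 8.34, and with peaks of −log10 q of at least 5 alone 0 of 4 regions held a base marked in both replicates. At TMEM114 such a peak was listed in each replicate, with −log10 q of 5.32 and 9.30, but the peaks shared no base. The bases marked in both replicates lay to the left of the summit by plus-strand coordinates, at chr6:131382092-131382596 for ARG1 and at chr16:8571694-8571950 and chr16:8572829-8573221 for TMEM114. In replicate 2 peaks also stood on the right, starting 669 bp from the TMEM114 summit and 883 bp from the ARG1 summit. No H3K27ac peak covered a summit at any member.

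NTM and ANAPC15 had no H3K27ac peak in the strongest region in either replicate. From the NTM summit the nearest H3K27ac peak was 136 kb away in replicate 1 and 47.0 kb in replicate 2. From the ANAPC15 summit it was 9.54 and 9.32 kb away, at LAMTOR1. The start of ANAPC15, with a FLI1 fold of 85.7 to 180.5, thus carried no listed H3K27ac. Within 1 kb of the outermost gene start H3K27ac was at 0 of 4 members, against 10.2% of protein-coding genes. Within 10 kb of the gene body it was at 4 of 4, against 23.8%. Such windows grow with the gene, from 26.4 kb at ANAPC15 to 986 kb at NTM, and the share is not matched for length. The same holds for the other counts over gene bodies. At TMEM114 the stretches marked in both replicates are those inside its strongest region. In the 50 kb outside the strongest region, H3K27ac was listed in both replicates at 2 of 4 members, against 36.8% of all regions.

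H3K9me3 distinguished the ARG1 region. It overlapped 1 of 4 strongest regions in both replicates, against 1.07% of all regions and 14.7% of those at least 5 kb wide. The overlap was at the left edge, with 1 peak per replicate at folds of 4.83 and 5.70, and the nearest H3K9me3 base was 4.17 and 3.79 kb from the summit. With peaks of −log10 q of at least 5 alone, or with only the bases present in all 4 FLI1 lists, the count was 0 of 4. In the 10 kb outside each edge of the ARG1 region, H3K9me3 peaks covered 65.2% of bases in replicate 1 and 52.0% in replicate 2, with 5 peaks in each. A cover of at least 50% in each replicate, a limit chosen after these values were seen, was found at 71 of 16163 regions (0.439%). H3K27ac therefore lay inside the ARG1 FLI1 region and H3K9me3 on both sides of it.

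The other members had less H3K9me3 beside them. In the 10 kb flanks it covered 10.3% and 3.07% of bases at NTM and 12.7% and 3.96% at TMEM114, and 0 at ANAPC15 in both replicates. H3K9me3 was in the 10 kb flanks of 3 of 4 regions in both replicates, against 19.6% of all regions, and on both sides only at ARG1. In the 50 kb flanks it was 4 of 4, against 49.6%. Within 200 kb of the gene body H3K9me3 was present at 4 of 4 members, against 75.6% of protein-coding genes. At the TMEM114 start, 14.0 kb from the summit, 1 peak was listed in each replicate with folds of 4.51 and 4.35, and 1.37% of protein-coding genes had H3K9me3 within 1 kb of the start in both.

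H3K27me3 overlapped 0 of 4 strongest regions in either replicate. Overlap in both replicates was found at 0.198% of all regions and 0.204% of those at least 5 kb wide. H3K27me3 was in the 10 kb flanks of 0 of 4 in both replicates, against 2.31%. Within 10 kb of the gene body it was at 2 of 4 members, NTM and TMEM114, against 17.0% of protein-coding genes. At the start of NTM, 605 kb from the summit, it was listed in both replicates with folds of 6.05 and 5.99, so NTM was 1 of 4 members with H3K27me3 at the start, against 9.36% of protein-coding genes. From the TMEM114 region the nearest peak was 13618 and 13011 bp to the left, inside the gene, and 6 and 4 peaks were listed within 50 kb of the region. ANAPC15 had none within 50 kb, and ARG1 none within 200 kb of the gene body. The nearest H3K27me3 peak to the ARG1 summit was 1017 and 1018 kb away.

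Neighbouring genes were taken as all protein-coding genes with a start within 200 kb of a member's gene body. There were 25 with the members included, and 12 had FLI1 in all 4 lists within 1 kb of the start and 5 had H3K27ac in both replicates, against 33.8% and 10.2% of all protein-coding genes. The ANAPC15 window was the richest, with 15 starts, 9 of them with FLI1. These 9 starts rest on 5 FLI1 regions, since XNDC1N, XNDC1N-ZNF705EP-ALG1L9P and RNF121 share 1 region and LRTOMT, LRRC51 and NUMA1 another. The 9 include ANAPC15 itself, chosen by its fold. Of the 5 starts with H3K27ac, those of XNDC1N, XNDC1N-ZNF705EP-ALG1L9P and RNF121 likewise share the same peaks. One of the 5 FLI1 regions was at INPPL1, a lipid phosphatase, at folds of 27.6, 30.0, 30.3 and 24.7. FOLR3, a folate receptor gene whose start is 2.30 kb from the ANAPC15 summit, had no FLI1 peak within 1 kb of its start. Near ARG1 the shared start region of MED23 and ENPP3 was bound in all 4 lists, at folds of 9.82, 14.0, 12.9 and 16.5. Around TMEM114 only METTL22 was bound in all 4.

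Relatives of the members were compared as 4 gene lists. Of 14 anaphase-promoting complex genes, 9 had FLI1 in all 4 lists within 1 kb of the start and 7 had H3K27ac in both replicates there, against 33.8% and 10.2% of all genes. The 9 include ANAPC15 itself, whose FLI1 region at the start was chosen by its fold. ANAPC11, the RING subunit, had start folds of 50.6, 49.1, 20.3 and 22.6. Of the 5 IgLON genes none had FLI1 at the outermost gene start in all 4 lists. NEGR1 had a peak there in set A replicate 2 alone, with a fold of 4.38. H3K27me3 was at the start of 4 of the 5 in both replicates (NTM, OPCML, NEGR1 and IGLON5), against 9.36% of all genes. LSAMP, the longest of them, held 19, 18, 16 and 7 FLI1 peaks within 10 kb, and NEGR1 held 2, 3, 0 and 0. The dense FLI1 binding was thus seen at NTM and OPCML and not at NEGR1.

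Among 9 urea cycle genes 2 had FLI1 at the start in all 4 lists, ASL, the lyase that makes arginine, and SLC25A13, the mitochondrial aspartate/glutamate carrier. None had H3K27ac there in both replicates. The shares over all genes were 33.8% and 10.2%. ARG2, the mitochondrial arginase, had no FLI1 peak within 10 kb in any library. TMEM235, the claudin-like relative of TMEM114, also had none, and had H3K27me3 at its start.

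The genes most like each member were found by the Euclidean distance over log2(1 + covered bases) in the 10 lists within 10 kb of the gene. For NTM they were DAB1 (distance 2.87), OPCML (3.65) and DLG2 (3.74), which at 1552, 1118 and 2173 kb are all longer than NTM at 966 kb. For TMEM114 they were CNIH3 (2.92), PDE4B (3.04) and ZNF131 (3.16). For ARG1 they were IMMP2L (2.03), PHTF2 (2.07) and BLOC1S5-TXNDC5 (2.11). These share its H3K9me3 and lack of H3K27me3, which follows from the choice, since the distance used those lists. For ANAPC15 the nearest was TOMT (0), whose window overlaps that of ANAPC15 and holds the same peaks, and CCDC137 (0.45) was also among the 3.

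Whole lists held 29339 to 40590 FLI1 regions, 10219 and 17366 for H3K27ac, 36687 and 21770 for H3K9me3, and 21461 and 16667 for H3K27me3. The lists give no read totals, so depth is unknown and no interval is given for a fold. The number of peaks differed between replicates of every mark, so a missing peak means that none was called there.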

How the data were processed

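CUT&RUN peak lists of 10 antibody libraries of TC-32 were used, and the 4 IgG libraries were not analysed here. The submitters' processing notes name cutadapt 4.4, Bowtie2, Picard 2.17.11, MACS2 2.1.1 and GRCh38/hg38, with no role given. Per the names of the deposited peaks, replicates were not pooled, and the equally numbered IgG of the set was the control. The deposited fold is the ratio of a peak to its control, and the deposited significance is the −log10 p and −log10 q of the caller. The summit offset was used as deposited.

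Overlapping peaks within a list were joined and took the values of the peak with the highest significance, on the 22 autosomes and X. FLI1 regions are unions of peaks sharing at least 1 base, so their bounds follow the widest list. A mark is present where both replicates have it. The median summit is over the 4 libraries. Genes are from GENCODE release 44, sequences from hg38, and promoters from RefSeq (250 bases before to 50 after a start). The start of a gene is its outermost GENCODE start, and the starts of shorter transcripts were not counted. Runs hold at least 4 GGAA or TTCC units. Replicate numbers are shared by the groups but the labels do not say that they mark a common culture. The members and lists were chosen with earlier results of these data known. Genes are named by a rule: the members, starts within 200 kb, 4 families, the next region in rank and the 3 most alike genes. One of the alike genes is not reported here. RERE and AKAP7 fall outside it and were chosen after their values were seen. The functions were tested on simulated data. Python 3.11.15, numpy 2.4.6, pandas 2.3.3, matplotlib 3.10.9, pysam 0.24.0 and samtools 1.23.1 were used. Alternatives covered the overlap rule, peak strength, windows, run length, pairing and leaving out libraries.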

Additional observations from a re-analysis of the deposited data

How the results depend on the processing

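Of 41 alternatives to the 6 main results, 35 gave a count within 1.5 times the main one or the same side of the test, and none reversed a direction. Some of the 35 were fixed in advance. The exact permutation test of set A against set B cannot give p below 0.333, or 0.5 by block. Its 7 alternatives could thus differ only in direction. The gene count of 4 could not change in the windows of 50 and 200 kb. The 2 regions overlapping H3K27ac became 0 when the summit had to lie inside the mark and 0 with mark peaks of −log10 q of at least 5, where no base was in both replicates. The 1 region overlapping H3K9me3 became 0 under the same 2 settings and 0 over bases in all 4 FLI1 lists. The 4 genes with FLI1 within 10 kb became 1 within 1 kb of the outermost gene start. Counts for the marks and the genes did not change when 1 library was left out (2, 1, 0 and 4). For the marks this setting asks for 1 replicate in place of both, so those counts could only stay or rise. The gene count was already at its ceiling of 4, which the rule largely fixes. With the run required within 250 bp of each library's summit, 2 of the 3 regions with a run were left. The mean difference in FLI1 covered bases between sets, 2674 bp, was 2520 to 2829 bp without 1 library, 4021 bp for the widest peak alone and 2639 bp for the stronger peaks. Same-numbered FLI1 libraries of the sets did not deviate together (r = 0.002 across the log2 folds of 16163 regions, which are not independent replicates). This correlation cannot show whether they came from a common culture, which the labels do not say. With the replicate number as a block (paired differences) the mean difference in covered bases was 2674 bp. An exact sign-flip permutation gave p = 0.5, the smallest that 2 pairs allow. Depth is unknown, so an absent peak was not detectable at this depth and is not shown to be absent.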
